A study of Rattus norvegicus with 23 samples.

Results

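Among the rat hearts sequenced 12 weeks after infarction, 3 libraries carried much more messenger RNA of Myl7, the regulatory myosin light chain of atrial muscle, than the 9 others, and they were set against those 9. The 3 libraries were chosen from the measured level of Myl7: each deposited value of this gene was above 100 normalized counts. They are MI replicate 2, MI replicate 5 and MI+TRD replicate 2, called MI 2, MI 5 and MI+TRD 2, and together the high-Myl7 libraries. They make up 3 of the 12 libraries for which values per library were used, of 23 libraries in the series. Because Myl7 chose them, its level is a description with no test. The same holds for Myl4, Sln and Nppa, the other atrial markers that came with the choice.

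Polyadenylated RNA was taken from myocardium of Sprague-Dawley rats, extracted with the miRNeasy kit and sequenced on an Illumina platform. In all rats the left coronary artery was ligated through the opened chest to cause a myocardial infarction (MI). In the MI+TRD groups a second operation then implanted a device that the labels name TRD and do not describe further. There were 6 MI and 6 MI+TRD libraries at 12 weeks, and 6 MI and 5 MI+TRD libraries at 6 weeks. The labels give the tissue as myocardium, with no chamber, and name neither age, sex nor the single animals. A p-value therefore reflects only how these samples vary, which may in part be technical.

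Atrial and ventricular muscle build their sarcomeres from partly different proteins. Atrial muscle uses the myosin light chains Myl7 and Myl4, restrains its calcium pump with sarcolipin (Sln), and stores the natriuretic peptide Nppa in secretory granules. Ventricular muscle uses the light chains Myl2 and Myl3, and it restrains the pump with phospholamban (Pln). After injury the ventricle also makes Nppa, so this gene alone does not mark a chamber.

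In the deposited table, Myl7 lies at chr14:86144770-86146751, Myl4 at chr10:92628356-92638101, Sln at chr8:58431407-58435655 and Nppa at chr5:164808407-164809717. Mybphl, a relative of cardiac myosin binding protein C found in atrial muscle, lies at chr2:211159283-211173037, and Sbk2, a protein kinase of the SH3-binding domain family, at chr1:72425728-72433495.

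The 250 bases before the start of 4 of these genes are shown because the genes were high in the same libraries although they lie on 4 chromosomes. The sequences are from RefSeq on the build GRCr8, a build that the submitters' processing notes do not name, and run 5′ to 3′ on the strand of the gene. They cover chr14:84996625-84996874 on the minus strand for Myl7, chr10:89975900-89976149 on the plus strand for Myl4, chr5:163711934-163712183 on the plus strand for Nppa and chr2:198693202-198693451 on the plus strand for Mybphl. Capitals mark GATAA, the core bound by GATA factors, and AGGTGT, one arm of the T-box site, on either strand.
Myl7: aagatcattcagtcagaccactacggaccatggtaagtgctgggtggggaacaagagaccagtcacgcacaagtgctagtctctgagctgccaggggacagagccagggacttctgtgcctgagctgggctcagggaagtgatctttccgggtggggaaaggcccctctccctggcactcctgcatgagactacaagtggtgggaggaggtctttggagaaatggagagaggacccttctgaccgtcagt
Myl4: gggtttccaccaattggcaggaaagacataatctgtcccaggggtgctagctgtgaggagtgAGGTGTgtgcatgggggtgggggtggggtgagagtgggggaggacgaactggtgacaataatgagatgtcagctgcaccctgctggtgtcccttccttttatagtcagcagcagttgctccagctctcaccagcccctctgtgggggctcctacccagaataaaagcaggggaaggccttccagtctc
Nppa: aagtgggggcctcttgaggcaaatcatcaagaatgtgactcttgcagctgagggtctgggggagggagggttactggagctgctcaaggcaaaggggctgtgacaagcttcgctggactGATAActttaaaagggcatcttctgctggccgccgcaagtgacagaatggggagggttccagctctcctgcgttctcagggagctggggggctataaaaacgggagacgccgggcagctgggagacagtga
Mybphl: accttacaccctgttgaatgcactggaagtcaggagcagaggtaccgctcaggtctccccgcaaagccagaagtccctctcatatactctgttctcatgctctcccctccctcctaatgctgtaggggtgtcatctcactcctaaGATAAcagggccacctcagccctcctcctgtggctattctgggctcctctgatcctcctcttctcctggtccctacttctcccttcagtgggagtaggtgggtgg

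GATAA stood in the windows of Nppa and Mybphl, and 23.5% of all 33469 promoter windows of the same length held it. AGGTGT stood in the window of Myl4, against 11.6% of all windows. AGGTCA, one arm of many nuclear receptor sites, was in none of the 4, against 14.1% of all windows. The letters AAGTG, the core bound by NKX factors, occurred 4 times in the Myl7 window and 2 times in that of Nppa, and 40.6% of all windows held them. These are matches of letters, searched on both strands, and no single motif of these was in all 4 windows.

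The level of Myl7 was spread over a wide range even among the 3 libraries. It was 3170 normalized counts in MI 2, 614 in MI+TRD 2 and 321 in MI 5, 9.89-fold apart from highest to lowest. Just below the threshold stood MI 1 with 81.8, so the lowest of the 3 was 3.92-fold above the highest of the 9. The 9 others did not share 1 level: MI+TRD 5 had 33.9, MI 6 had 27.7, MI 3 had 6.58 and the rest 2.47 or less, down to 0.0999 in MI+TRD 1, which is 1 read. The threshold therefore divided a graded series of libraries, with 2 of the 3 highest in MI and the 2 lowest in MI+TRD.

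Myl4, the essential light chain of atrial myosin, had nearly the order of Myl7. It reached 1983 in MI 2, 469 in MI+TRD 2 and 246 in MI 5, and in the 9 others it lay between 0.350 and 64.9 with a median of 3.68. As a ratio of deposited values, not corrected for transcript length, Myl4 was 62.6% to 79.3% of Myl7 in the 6 libraries whose Myl7 was above 20. In these libraries the 2 light chains thus kept nearly 1 proportion while Myl7 itself ranged from 27.7 to 3170. Below 20 the proportion was not steady, from 27.3% in MI 3 to 253% in MI+TRD 6 among libraries with at least 42 reads of Myl7.

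Mybphl had the order of Myl7 in the 6 libraries highest in Myl7 and departed from it below these, where MI+TRD 6 had the lowest value. Its level was 184 in MI 2, 36.2 in MI+TRD 2 and 13.8 in MI 5, against 0.0398 to 3.65 in the 9 others, with a median of 0.162. It made up 4.31% to 5.90% of Myl7 in the 3 libraries, and 3.43% to 5.90% in the 6 with Myl7 above 20. MI+TRD replicates 1, 4 and 6 had 0 reads of Mybphl, which allows up to 3 reads each.

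Sln was high in the same libraries and close to absent in most others. The high-Myl7 libraries had 59.1 in MI 2, 9.02 in MI+TRD 2 and 2.42 in MI 5. The highest of the 9 was MI 1 with 0.644, and 6 of the 9 had 0 or 1 reads. A library with 0 reads is listed in the deposited table at the value of 1 read, not at 0.

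Nppa, which makes atrial natriuretic peptide, did not keep a fixed proportion to Myl7. It was 6586 in MI 2, 2777 in MI 5 and 2166 in MI+TRD 2, against 45.5 to 1671 in the 9 others with a median of 278. All 3 lay above the 9, but MI 5 exceeded MI+TRD 2 although its Myl7 was lower. As a share of Myl7, Nppa ran from 208% in MI 2 to 2042% in MI 1 among the 6 libraries with Myl7 above 20. MI 4 and MI+TRD 6, with 2.32 and 2.47 of Myl7, still had 851 and 944 of Nppa.

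**Figure D1:**
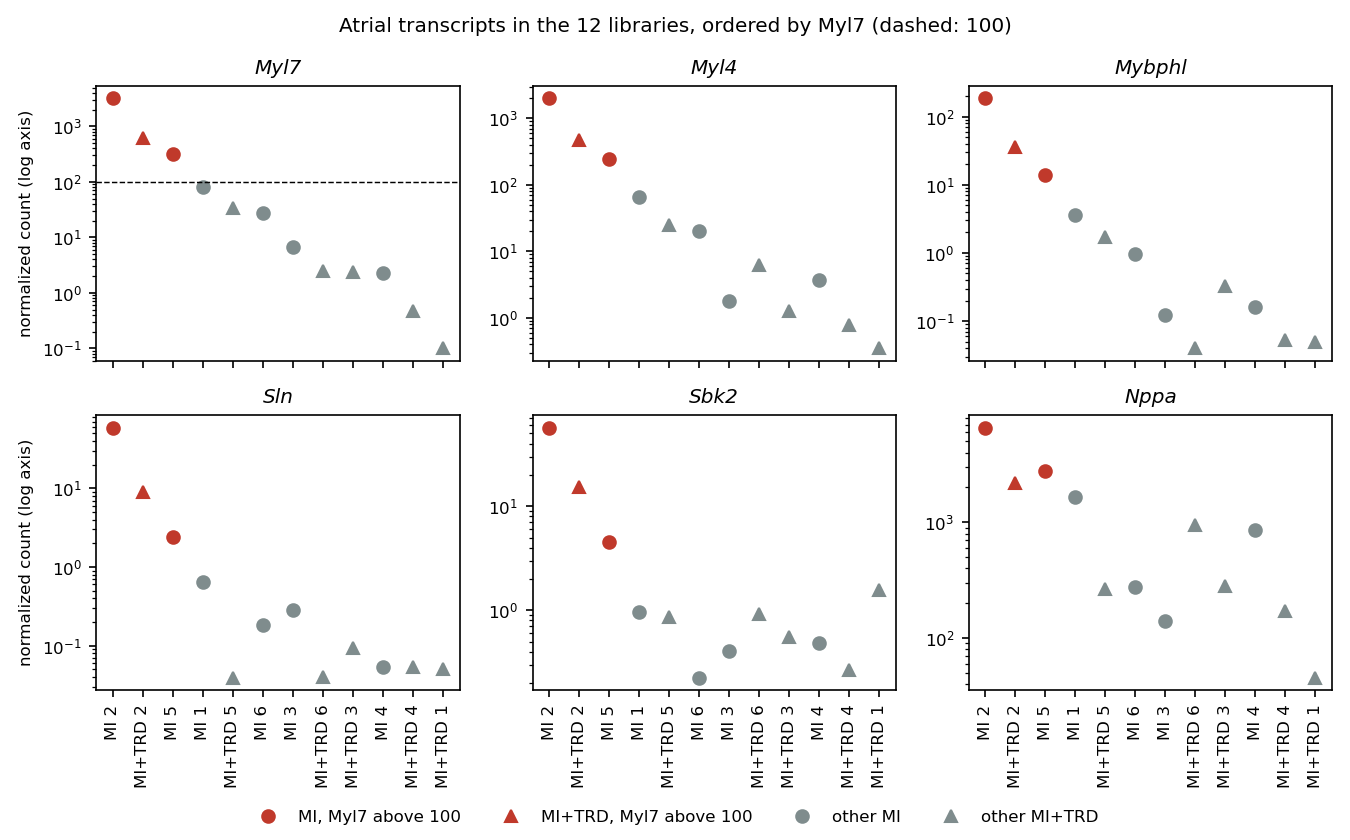
Normalized counts (log axes) of Myl7, Myl4, Mybphl, Sln, Sbk2 and Nppa in each of the 12 libraries, ordered from left to right by Myl7, 1 point a library, with circles for MI, triangles for MI+TRD and red for Myl7 above 100 (dashed line). Myl4 and Mybphl descend with Myl7, Sbk2 drops to 1.55 or less outside the 3 libraries, and Nppa varies between 45.5 and 1671 among the 9 others.

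**Figure D2:**
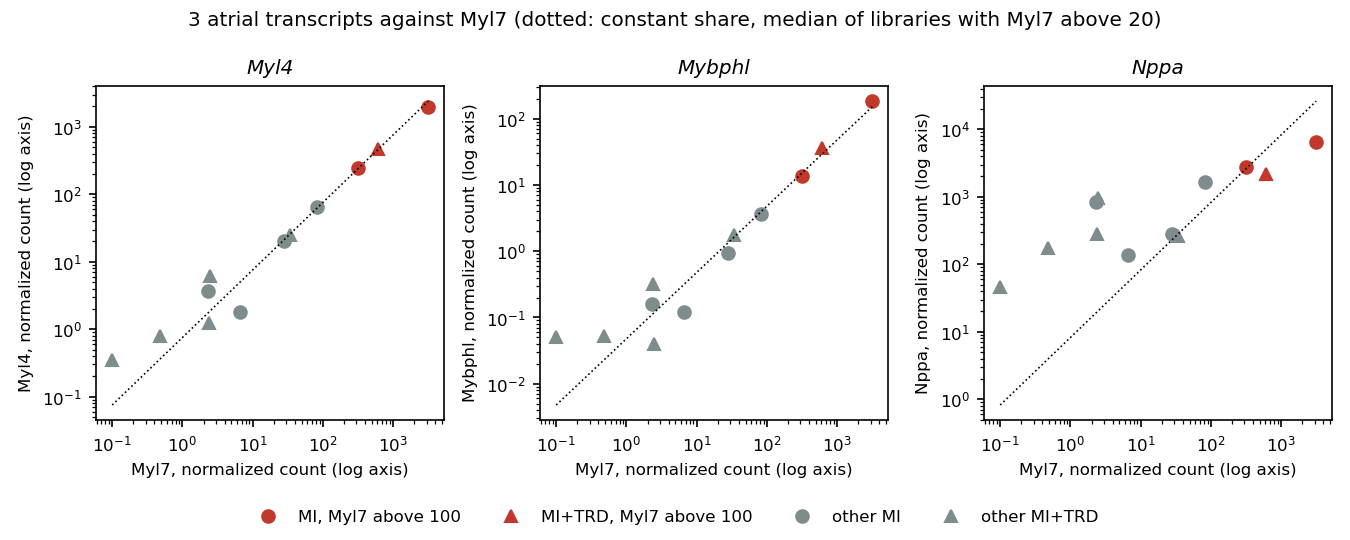
Myl4, Mybphl and Nppa against Myl7 in the 12 libraries, normalized counts on log axes, 1 point a library; the dotted line is a constant share of Myl7, the median over the 6 libraries with Myl7 above 20. Myl4 and Mybphl lie along the line where Myl7 is above 20, whereas Nppa departs from it, from 208% to 2042% of Myl7.

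All other genes were then set against the same division in 1 fit. A limma model on log2(value + 0.229), where 0.229 normalized counts are worth about 5 reads, compared the 3 libraries with the 9 others for 10628 genes, with the MI or MI+TRD group as a covariate. A log2 difference below is the coefficient of this fit, and differences of genes with few reads are understated by the added 0.229. As the division rests on measured values, a p here orders genes by how closely they follow it and is no test of a planned comparison. Over all genes the median difference was 0.04, and the middle 80% of genes lay between -0.32 and 0.42.

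At an adjusted p below 0.05 (Benjamini-Hochberg over all 10628 genes), 3 genes were higher in the high-Myl7 libraries, 0.0282% of those fitted, and 0 were lower. Without adjustment, 331 genes (3.11%) had a p below 0.05 and a higher level and 275 (2.59%) a lower level. That balance moved with the scaling, to 471 against 179 with equal column totals, 309 against 343 with median ratios and 275 against 384 with quantiles, with 3 genes called in each. On recovered read numbers, edgeR's quasi-likelihood test called 4 higher (0.0376%) and 0 lower, and DESeq2 called 14 higher (0.132%) and 4 lower (0.0376%). Sln and Atp1b4 were called by both, and Hoga1 and Psrc1 by DESeq2. In the 9 others these genes were under the mean of 0.458 required for the fit. They entered it only through the 3 libraries and had to differ, so their calls add no support. In limma, 114 genes (1.07%) had a log2 difference above 1 and 16 (0.151%) one below -1. In 93 genes (0.875%) all 3 libraries lay above the 9 others, and in 46 (0.433%) all 3 lay below.

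The 3 genes were Mybphl, Sln and Sbk2, each with an adjusted p of 0.0144 in limma. Sln was 1 of the markers, and its mean of 0.160 over the 9 others was under the 0.458 required for the fit, so it entered only through the 3 libraries and had to differ. Its p gives its place in the order and nothing more, which leaves Mybphl and Sbk2 beside it. Their log2 differences were 6.01 (SE 0.84) for Mybphl, 4.84 (SE 0.68) for Sln and 4.34 (SE 0.59) for Sbk2, and edgeR gave 6.36, 7.39 and 5.33. Sbk2 was 56.9 in MI 2, 15.3 in MI+TRD 2 and 4.55 in MI 5, and between 0.226 and 1.55 in the 9 others. Outside the 3 libraries Sbk2 had no visible order with Myl7: MI+TRD 1, which had 1 read of Myl7, had the highest Sbk2 of the 9. Without MI 2, MI 4 or MI+TRD 2, none of the 3 genes passed the threshold, and their adjusted p-values were then 0.0745 to 0.429. For Myl4 the difference was largest of the named genes, 6.62 (SE 1.14), and its adjusted p was 0.0960. Nppa differed by 3.19 (SE 0.78).

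The remaining genes with the smallest p, 8 in number, were named by rule, and none of them passed the adjusted threshold in limma. Atp1b4, a muscle protein related to the beta subunits of the sodium pump, was 30.0 in MI 2, 5.08 in MI+TRD 2 and 1.03 in MI 5, and at most 0.432 in the 9 others. Rab15, a small GTPase of endosomal traffic, was 26.6, 5.04 and 5.42 in the same libraries and at most 1.67 in the others. In both genes all 3 libraries lay above the 9, as in Sbk2.

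Mybpc1, the slow skeletal form of myosin binding protein C, was 6.36 in MI 2, 1.31 in MI+TRD 2 and 1.23 in MI 5, against at most 0.632. Hoga1, an enzyme of hydroxyproline breakdown in mitochondria, was 6.89, 1.23 and 2.50 in that order, against at most 0.915. Hamp, the iron hormone hepcidin, was 94.2 in MI 2 and 32.2 in MI+TRD 2, but its 5.70 in MI 5 was below the 6.09 of MI+TRD 6. In the 11 other higher genes named by rule, the 3 libraries all lay above the 9. Of these 12 genes, 8 reached the required mean in the 9 others too, and Sln, Atp1b4, Hoga1 and Mybpc1 did not.

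Sfrp1, Ica1 and Prkag2 were well expressed in every library and differed less. Sfrp1, a secreted Wnt antagonist, was 80.7 in MI 2, 31.0 in MI+TRD 2 and 34.5 in MI 5, against 11.3 to 27.1. Ica1, a protein of secretory granule membranes, was 13.4, 5.13 and 6.61, against 2.03 to 3.87. Prkag2, the regulatory gamma-2 subunit of AMP-activated kinase, was 66.1, 41.6 and 32.0, against 15.2 to 27.7. In all 3 genes MI 2 was the highest library, and the log2 differences were 1.48 (SE 0.28), 1.33 (SE 0.27) and 1.01 (SE 0.21).

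Genes lower in the high-Myl7 libraries differed by smaller amounts. The 12 with the smallest p had log2 differences between -1.30 and -0.56, adjusted p-values of 0.504 to 0.847, and in 4 of them all 3 libraries lay below the 9. Fgf16, a fibroblast growth factor made in heart muscle, was 0.873 in MI 2, 0.890 in MI+TRD 2 and 0.944 in MI 5, against 1.56 to 4.28. Cdh22, a cadherin, was 2.57, 3.94 and 2.34, against 4.04 to 11.2, so its margin to MI+TRD 5 was narrow.

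Pdp2, the phosphatase that activates pyruvate dehydrogenase, was 5.92 in MI 2, 7.16 in MI+TRD 2 and 6.65 in MI 5, against 7.80 to 13.8. Galnt10, an enzyme that starts O-linked glycosylation, was 1.99, 1.27 and 1.68, against 2.25 to 4.30. Dgkg, a diacylglycerol kinase, was 0.679 in MI 2 and 0.805 in MI+TRD 2, but 2.42 in MI 5, within the 1.83 to 3.96 of the others. The other 7, whose groups also overlapped, were Mon1b, Acsl6, Sctr, Fads6, Nr1d1, Per3 and Rgs4.

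The 2 treatment groups were also looked at apart, as values without a test, since MI+TRD had only 1 high-Myl7 library. All 12 higher genes named by rule were higher in both groups: Mybphl by 5.84 in MI and 6.28 in MI+TRD, Sln by 4.71 and 5.03, and Sbk2 by 4.55 and 4.0, on the log2 scale. All 12 lower genes were lower in both. That agreement is part of the choice, because the fit that ranked the genes used both groups. A model with an interaction between the division and the group called 0 genes at an adjusted p below 0.05 by limma, with the lowest adjusted p at 0.9997, and 211 genes (1.99%) at an unadjusted p below 0.05.

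**Figure D3:**
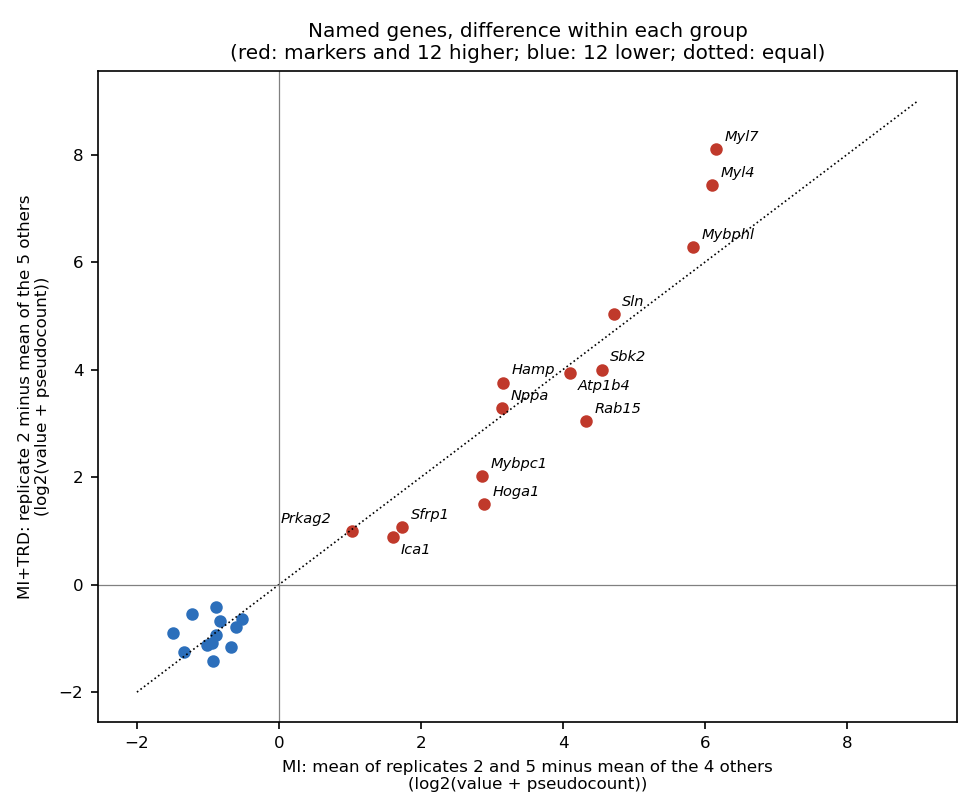
Log2 difference of each named gene within MI (mean of replicates 2 and 5 minus mean of the 4 others, horizontal) and within MI+TRD (replicate 2 minus mean of the 5 others, vertical); red points are the 4 markers and the 12 higher genes, blue points the 12 lower genes, and the dotted line marks equal differences. Points of the higher genes are positive on both axes, with Mybphl near the line at 5.84 and 6.28, and Hoga1 farther from it at 2.89 and 1.49.

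When genes were taken from the MI libraries alone, MI+TRD 2 gave values that their choice had not used. With Myl7 left out, 12 genes had MI 2 and MI 5 both above the 4 other MI libraries and a log2 difference above 3. In MI+TRD 2, 8 of them (66.7%) were above all 5 other MI+TRD libraries: Atp1b4, Hamp, Mybphl, Myl4, Nppa, Rab15, Sbk2 and Sln. Of all 10628 genes, 1879 (17.7%) were highest there in MI+TRD 2. Sln and Atp1b4 entered the fit only through the high-Myl7 libraries, and Myl4, Sln and Nppa were markers. Without the markers and the genes under the required mean in the 9 others, the count was 4 of 8 genes (Hamp, Mybphl, Rab15 and Sbk2), against 17.6% of the 10600 genes left, and Adipoq, Car3, Pck1 and Thrsp were the 4 that were not highest in MI+TRD 2. With a difference above 1, the count was 31 of 114 genes (27.2%) in all, and 21 of 101 (20.8%) with the same genes left out. These counts are a description of 1 library. Of the 21 genes lower by more than 1 in MI, 6 (28.6%) were lowest in MI+TRD 2, against 14.5% of all genes.

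Gene lists for the heart chambers and for other cell types of the heart wall place these genes among their neighbours. In bulk tissue, fewer cells of a type and less RNA per cell cannot be told apart. At an unadjusted p below 0.05, 3.11% of all 10628 genes were higher and 2.59% lower, and counts in the lists stand beside these shares. Counts by sign stand beside the median of 0.04 over all genes. Of the 7 atrial contractile and peptide genes beside Myl7, 6 were fitted, all 6 had an unadjusted p below 0.05 with a higher level, and their median log2 difference was 4.02. Bmp10 was not analysed here. Myl4, Sln, Nppa and Mybphl are 4 of these genes, and the other 2 were highest in MI 2. Myl4, Sln and Nppa came with the choice as markers, and Sln entered the fit only through the high-Myl7 libraries. The count of 6 and the median of 4.02 are therefore a description with no test. Dkk3, a secreted glycoprotein, was 190 there, but 82.7 in MI 5 and 83.9 in MI+TRD 2, within the 53.6 to 91.3 of the others. Stard10, a lipid transfer protein, was 118 in MI 2, 20.5 in MI+TRD 2 and 13.7 in MI 5, against 6.70 to 15.3 in the others.

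Other genes of atrial muscle did not share this size of difference. Among 8 atrial ion channel and connexin genes the median was 0.40 (0.67 within MI and -0.16 within MI+TRD), and Cacna1d and Cacna1g, pore subunits of L-type and T-type calcium channels, had an unadjusted p below 0.05. Kcnj3, a subunit of the acetylcholine-gated potassium channel, was 28.8 in MI 2, but 9.89 in MI 5 and 8.47 in MI+TRD 2, within the 4.73 to 16.0 of the others. Kcna5, the channel of the ultrarapid potassium current, was 1.99 in MI+TRD 2, below all other libraries, and 7.76 and 7.06 in MI 2 and MI 5. Gja5, the atrial connexin, lay between 3.09 and 8.94 in the 3 libraries, and between 3.72 and 12.7 in the 9.

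The 9 atrial and venous pole transcription factors had a median of 0.15, and -0.02 without MI 2. Shox2, a factor of the sinus node, was 4.41 in MI 2 and at most 0.245 in every other library. As that is under the mean of 0.458 required for the fit, Shox2 entered it only through MI 2. Tbx5 was 20.1 in MI 2, 5.66 in MI 5 and 5.0 in MI+TRD 2, against 3.67 to 9.09. Nr2f2 and Nr2f1, nuclear receptors of atrial identity, differed by 0.15 (SE 0.31) and -0.21 (SE 0.28). Of the 6 contractile and peptide genes fitted, 4 (the markers Myl4, Sln and Nppa, and Mybphl) thus lay above the 9 others in all 3 libraries. Kcnj3, Shox2 and Tbx5 lay above them in MI 2 alone, and the libraries are therefore called here by their Myl7 level.

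Genes for the storage and processing of peptides had a median of 0.19, and 0.04 without MI 2. Of 6 fitted, 1 had an unadjusted p below 0.05: Pam, which amidates peptides and is a main protein of atrial granule membranes, was 1252 in MI 2, 931 in MI 5 and 875 in MI+TRD 2, against 579 to 942. Corin, the protease that cleaves the Nppa precursor, was 65.5 in MI 2 but 28.3 in MI 5 and 23.7 in MI+TRD 2, within 13.5 to 45.6.

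Pacemaker and conduction genes had no common direction, with a median of 0.06 over 9 genes, and -0.22 without MI 2. Vsnl1, a calcium sensor of the sinus node, was 16.4 in MI 2, 4.62 in MI+TRD 2 and 3.61 in MI 5, against 0.324 to 4.90. Hcn2, a pacemaker channel also present in ventricular muscle, was lower, at 17.7 in MI 2, 36.6 in MI+TRD 2 and 52.4 in MI 5, against 42.6 to 92.8. Hcn4, the main pacemaker channel of the sinus node, was 5.39 in MI 2, the lowest of all 12 libraries.

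Ventricular muscle genes were slightly lower. Of 15 fitted, 14 had a negative difference with a median of -0.40, and the median was -0.15 without MI 2. The transcription cofactors Lbh and Fhl2 were lower at an unadjusted p below 0.05, as were 2.59% of all genes. Lbh was 126 in MI 2, 255 in MI+TRD 2 and 288 in MI 5, against 229 to 399. Myh7, the slow myosin heavy chain, was 5525 in MI 2 and 7385 in MI+TRD 2, both below the 9 others (10089 to 22960), but 12600 in MI 5. Myl2, the ventricular light chain, was 139, 217 and 342 in MI 2, MI+TRD 2 and MI 5, within the 69.4 to 392.3 of the others, so Myl2 did not mirror Myl7.

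Sarcomere proteins common to all chambers had a median of -0.16 over 14 genes, calcium cycling genes -0.22 over 13, and fatty acid genes -0.13 over 34. In each of these lists 1 gene had an unadjusted p below 0.05, always lower: Myom2, a protein of the M-band, Jph2, which couples calcium release to the cell surface, and Lpl, the lipase that frees fatty acids. Of 57 nuclear-encoded respiratory chain genes 0 had such a p, and the median was 0.15. The 2 groups differed in sign for some of these: the respiratory chain median was -0.18 within MI and 0.64 within MI+TRD, and 0.39 without MI 5. That of fatty acid genes was -0.41 within MI and 0.29 within MI+TRD, and that of sarcomere proteins -0.22 and 0.00. The respiratory chain genes summed to 14902 in MI+TRD 2, 14217 in MI+TRD 3 and 11770 in MI+TRD 6. In MI+TRD 1, 4 and 5 they summed to 8393, 8205 and 7917. MI+TRD 2 was thus near MI+TRD 3, and the wider gaps were to MI+TRD 1, 4 and 5.

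Of 10 cardiac stress genes fitted, 9 had a positive difference. Their median was 0.40 (0.32 within MI and 0.95 within MI+TRD), and 2 had an unadjusted p below 0.05, both higher. Ctgf, a matrix growth factor, was 500 in MI 2, 328 in MI 5 and 301 in MI+TRD 2, above the 67.3 to 261 of the 9 others. Atf3, an early stress transcription factor, was 129, 21.6 and 44.4, against 5.25 to 46.3. Nppb, the natriuretic peptide of the strained ventricle, was 335 in MI 2, 317 in MI 5 and 297 in MI+TRD 2, against 55.8 to 440. The list summed to 6177 to 7840 in the 3 libraries and to 3930 to 8808 in the 9, and its part in the difference of Nppa was not tested.

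Genes of fat cells and of nerves had the highest list medians after the atrial contractile genes. All 10 adipocyte genes fitted were positive with a median of 1.59. At an unadjusted p below 0.05, 5 were higher, against 3.11% of all genes: Adipoq, Plin1, Cidec, Retn and Pck1. Adipoq and Pck1 reached the mean required for the fit in the 9 others too. For Plin1, Cidec and Retn this was not looked at, so the count of 5 and the median are a description with no test. Adipoq, the adipocyte hormone adiponectin, was 18.2 in MI 2 and 2.87 in MI 5, but 0.720 in MI+TRD 2, against 0.050 to 7.61 in the 9 others. The median was 2.21 within MI and 0.36 within MI+TRD, and 0.76 without MI 2. MI+TRD 5, with 33.9 of Myl7, had the second most Adipoq, at 7.61. The summed level of the list ran from 205 to 412 in the 3 libraries and from 150 to 313 in the 9, and its part in the results was not tested.

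Schwann cell and neuron genes had a median of 0.76 over 12 genes, of which 4 were higher at an unadjusted p below 0.05, against 3.11% of all genes. S100b, a calcium-binding protein of glia, was 7.33 in MI 2, 2.30 in MI 5 and 1.40 in MI+TRD 2, against 0.204 to 3.81. Scn7a, a sodium channel of nonmyelinating Schwann cells, was 57.9, 38.5 and 31.6, against 17.2 to 33.3. Ngfr, the low-affinity nerve growth factor receptor, was 2.67, 1.72 and 1.36, above the 0.430 to 1.20 of the 9. The list summed to 73.0 to 127 in the 3 libraries and to 41.3 to 122 in the 9, and its part was not tested.

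Of 18 fibroblast and matrix genes 4 were higher at an unadjusted p below 0.05, where 3.11% of all genes were, and the list median was 0.22. The 4 were the proteoglycans Dcn and Lum, the microfibril protein Mfap5 and Pi16. Dcn was 334 in MI 2, 337 in MI 5 and 425 in MI+TRD 2, against 212 to 341. The list summed to 2723 to 3419 in the 3 libraries and to 1467 to 5670 in the 9, and its part was not tested. Epicardial genes had a median of 0.41 over 9 genes, with 1 such p, for the matrix protein Efemp1. That median was 0.20 without MI+TRD 2, and 0.96 within MI+TRD. Valve and tendon matrix genes also had a median of 0.41 over 9 genes, with 1, for the thrombospondin Thbs4, but 0.15 without MI 5, and -0.04 within MI+TRD. The fibroblast median was 0.09 without MI 2.

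Several other lists had few or no genes with an unadjusted p below 0.05. The endothelial list had 1 of 15, Egfl7, and a median of -0.09, and the fast skeletal muscle list had 1 of 4, Myl1, a myosin light chain of fast skeletal muscle. Smooth muscle (12 genes, median -0.17), lymphatic endothelium (6, 0.27), macrophages and leukocytes (16, 0.16), red cells (7, -0.22) and lung epithelium (2, 0.10) had 0. These small medians were not stable between the groups. Within MI and within MI+TRD they were 0.33 and -0.85 for smooth muscle, 0.05 and 0.77 for lymphatic endothelium, and -0.06 and 0.60 for macrophages. They were 0.25 and -0.32 for endothelium, 0.10 and -0.02 for red cells, and 0.74 and 0.12 for fast skeletal muscle. As MI+TRD had 1 high-Myl7 library, the values within MI are also those without MI+TRD 2.

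**Figure D4:**
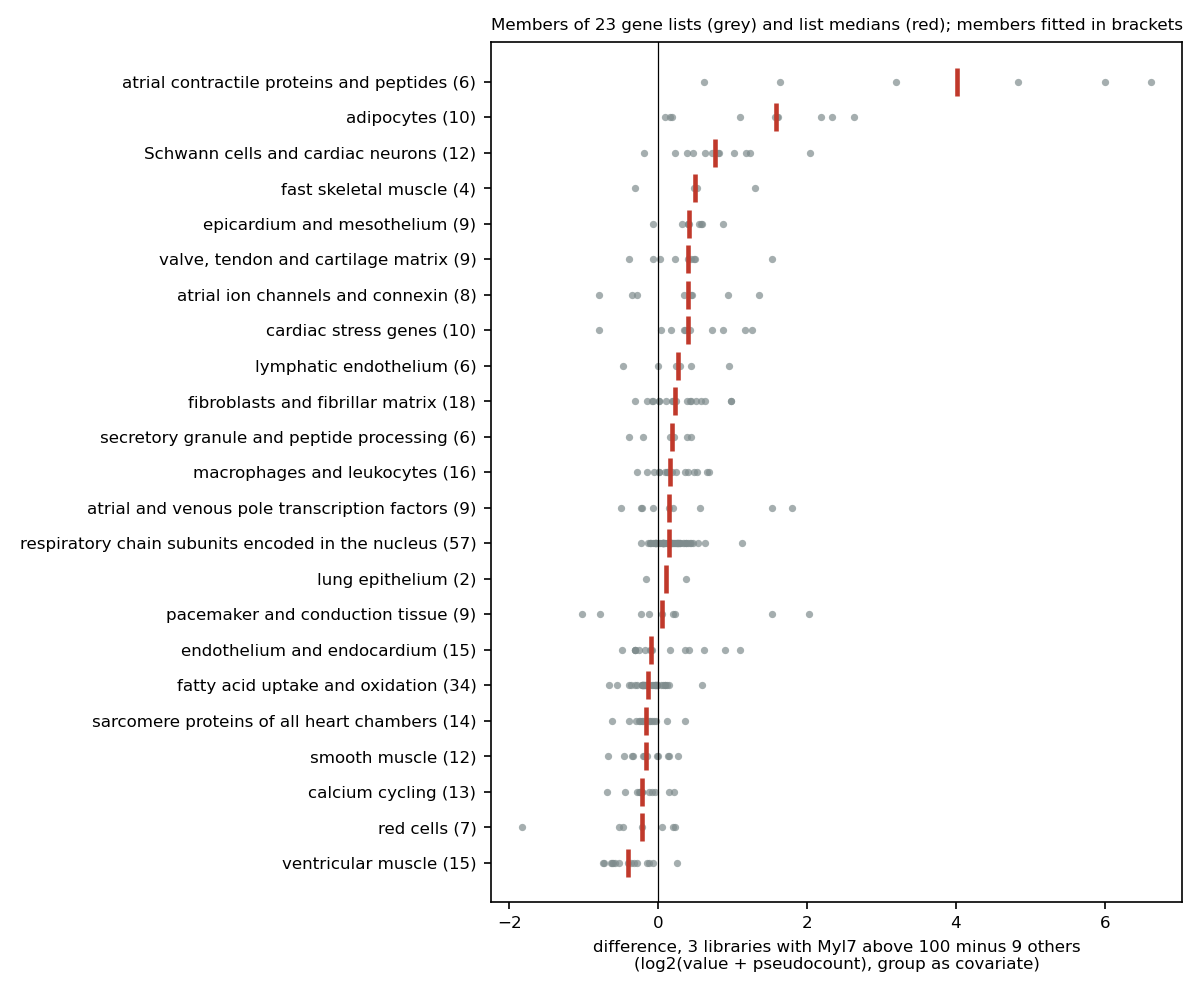
Log2 difference between the 3 libraries and the 9 others (horizontal) of every fitted member of 23 gene lists (grey points, 1 a gene) with the median of each list (red bar); the number of fitted members stands in brackets. Atrial contractile genes, which include the markers Myl4, Sln and Nppa, have a median of 4.02, adipocytes 1.59 and Schwann cells 0.76. Ventricular muscle has the lowest at -0.40.

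MI 2 carried more of these differences than the other 2 libraries. Beside Shox2, Tbx5, Corin and Kcnj3, it was the highest of all 12 libraries for Epha4, an ephrin receptor named after its values were seen, at 70.5 against 18.3 in MI 5 and 16.0 in MI+TRD 2. Without MI 2, the median of the atrial contractile list was 3.34 and that of the channels 0.07, and limma called no gene: the adjusted p was 0.145 for Sln, 0.226 for Mybphl and 0.995 for Myl4 and Nppa. The 3 libraries did not stand apart in depth: they had 9097202 to 9580478 recovered reads, and the 9 others had 7197118 to 10304156. Ribosomal RNA entries took 1.35% to 6.66% of the total in the 3 and 1.78% to 11.7% in the 9.

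The labelled comparison at 12 weeks, MI+TRD against MI, was then set out for the atrial genes with and without the 3 libraries. In limma it called 0 of 10629 genes (0%) at an adjusted p below 0.05 with all 12 libraries, where an unadjusted p below 0.05 went with a higher level in 297 genes (2.79%) and a lower one in 2034 (19.1%). These counts were 1207 and 412 with equal column totals, 797 and 877 with median ratios and 695 and 1043 with quantiles. Over all genes the median was -0.14 as deposited and 0.08, 0.01 and -0.01 under these scalings. With the 9 other libraries it also called 0 genes (0%), with 246 (2.31%) and 1638 (15.4%) at an unadjusted p below 0.05. On recovered reads of the 12 libraries, edgeR called 0 and DESeq2 called 18. The authors' deposited table for 12 weeks does hold genes with a false discovery rate below 0.05. Egfl7 is 1 of them, at 0.0435 with a ratio of 0.529.

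The mean of Myl7 was 602 ± 1264 over the 6 MI libraries and 109 ± 248 over the 6 MI+TRD libraries (± SD), so the spread exceeded both means. Its log2 difference, MI+TRD minus MI, was -3.36 over 12 libraries and -2.66 over the 9 with Myl7 of 100 or less. As Myl7 itself decided which 9 libraries those are, these 2 values are given without a test. The means were then 29.6 ± 36.5 for the 4 MI libraries left and 7.87 ± 14.6 for the 5 of MI+TRD (± SD). Myl4 went from -2.71 (SE 1.72) to -1.91 (SE 1.13), and Nppa from -1.62 (SE 0.95) to -1.12 (SE 0.80). For these 3 genes the 9 libraries kept the direction of the 12.

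Mybphl, Sln, Rab15 and Atp1b4 also had values nearer to 0 without the 3 libraries, and that of Rab15 was then above 0. Sbk2 went from below to above 0 and was then farther from it. As these genes were named for being high in the 3 libraries, of which 2 are MI, part of this shift follows from the choice. Mybphl moved from -1.82 (SE 1.48) to -0.92 (SE 0.80) and Sln from -1.49 (SE 1.19) to -0.75 (SE 0.56). Rab15 moved from -0.87 (SE 1.01) to 0.07 (SE 0.70), Atp1b4 from -0.76 (SE 1.05) to -0.05 (SE 0.57) and Sbk2 from -0.39 (SE 1.06) to 0.46 (SE 0.47). Each of these differences was smaller than 2 of its standard errors. In edgeR, which compares means, Sbk2 differed by -1.52, Atp1b4 by -2.29 and Rab15 by -1.91 over the 12 libraries. Myl7, Myl4, Sln, Nppa and Mybphl were lower in MI+TRD over 12 libraries under each of 3 other scalings.

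**Figure D5:**
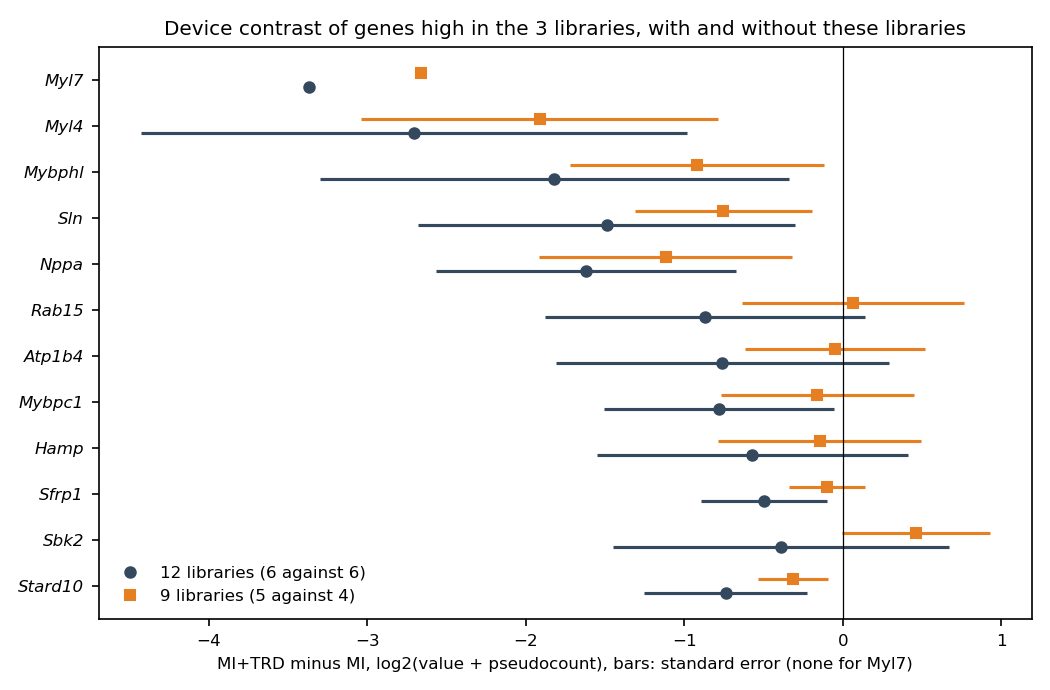
Log2 difference, MI+TRD minus MI, of 12 genes high in the 3 libraries, from 12 libraries (6 against 6, dark circles) and from the 9 libraries with Myl7 of 100 or less (5 against 4, orange squares), with bars of 1 standard error to each side and none for Myl7. Myl7 keeps a negative difference (-3.36 and -2.66), and Sbk2 changes from -0.39 to 0.46.

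Values of the 6-week libraries entered neither the division nor the fit that ranked the genes. In the authors' deposited table for 6 weeks, Myl7 had a mean of 54.7 in MI+TRD and 15.9 in MI, a ratio of 3.45 with a p-value of 0.735. At 12 weeks the authors' deposited table gave means of 110 and 617, a ratio of 0.178 with a p-value of 0.0462 and a false discovery rate of 0.201. The higher mean of Myl7 was thus in MI+TRD at 6 weeks and in MI at 12 weeks.

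Most of the higher genes had their higher mean in MI+TRD at 6 weeks too. In the authors' deposited table the 6-week ratio was 2.87 for Myl4, 4.59 for Sln, 5.06 for Mybphl, 2.85 for Atp1b4, 4.08 for Rab15 and 4.86 for Mybpc1. Apart from Myl4 (12.7 in MI and 36.4 in MI+TRD), the means behind these ratios were low. In MI and MI+TRD the authors' deposited table gave 0.213 and 0.975 for Sln, 0.520 and 2.63 for Mybphl, and 0.162 and 0.463 for Atp1b4. For Rab15 it gave 0.535 and 2.18, and for Mybpc1 0.0811 and 0.394. Of the 12 higher genes named by rule, 11 had a ratio above 1 in the authors' deposited table, with a median of 2.26, where 4851 of 11283 genes (43%) had one. The 12 include the markers Myl4 and Sln, and Sln, Atp1b4, Hoga1 and Mybpc1 had entered the fit only through the high-Myl7 libraries. As the genes were chosen for rising together at 12 weeks, the 11 are not separate observations, and their count is a description. Of the 12 lower genes, 5 had a ratio above 1 in the authors' deposited table, with a median of 0.982. Rab15 had a p-value of 0.0311 and a false discovery rate of 0.510 in the authors' deposited table, and the p-values of the other 5 ran from 0.336 to 0.787. Nppa, with a ratio of 0.917 in the authors' deposited table, had its slightly higher mean in MI. Sbk2 had a ratio of 1.21 in the authors' deposited table.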

How the data were processed

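Partek and the build rn6 are named in the submitters' processing notes, without roles. Aligner, counter, annotation and scaling: not given in the sources used here. For the 12-week groups the authors deposited a signal, a normalized count for each gene in each library, per the file headers. Low values were whole multiples of each library's smallest value (97.2% to 98.6% of values up to 20 steps, within 0.1), read as reads plus 1, giving 7197118 to 10304156 reads a library. The authors also deposited tables for 6 and 12 weeks with a p-value, a linear ratio and a signed fold change per gene, per the file headers. For 6 weeks only these tables were used.

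The main test was limma 3.58.1 (R 4.3.3) with a trended prior on log2(value + 0.229), two-sided, for genes with a mean of at least 0.458 and without Myl7, with the group as covariate and Benjamini-Hochberg adjustment over all genes at 0.05. On the recovered reads, edgeR 4.0.16 and DESeq2 1.42.0 were alternatives, as were other pseudocounts, filters, scalings, predictors and left-out libraries. Steps were tested on simulated data. Named genes were the 12 highest and 12 lowest past the threshold with no overlap, filled by smallest p, the 4 markers, and from each list up to 4 genes with the smallest p. Genes, lists and the division were chosen with earlier results of these data known. All pairs of libraries differed by more than counting noise (chi-square at least 12.9 per degree of freedom), with Pearson's r on the log2 scale from 0.884 to 0.983. Promoters were matched by symbol for 7 of 8 genes asked. Intervals of counts of 0 cover counting error only. Reads of overlapping or near-identical genes may have been split between them. Some list members are counted but not reported here by name.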

Additional observations from a re-analysis of the deposited data

Results flagged for a closer look

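In 52 pairs of a gene and a group of 6 libraries, 5 values lay apart from the rest of their group by Dixon's criterion on log2 values (gap over range above 0.625), where chance gives about 1 in 20 groups of genes picked without regard to their values. That rate does not hold here, because the genes were named for being extreme in the high-Myl7 libraries. In MI+TRD, replicate 2 had 9.02 of Sln where the next library had 0.0929, 15.3 of Sbk2 where the next had 1.55, and 5.08 of Atp1b4 where the next had 0.432. In MI, replicate 2 had 30.0 of Atp1b4 where the next had 1.03, and 0.679 of Dgkg where the next lowest had 2.36.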

How the results depend on the processing

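The count of genes higher in the high-Myl7 libraries was 3 and that of lower genes 0. With DESeq2 they were 14 and 4, and 2 of the 3 genes were among the 14 (Mybphl had an adjusted p of 0.0980). The counts of higher genes include some that entered the fit only through the high-Myl7 libraries, such as Sln. The higher count was 6 without the group covariate, 0 in the MI libraries alone, and 0 without MI+TRD replicates 1, 4 and 5. It was 8 with log2 Myl7 as a predictor in place of the division, where 1 gene, Nr1d1, was lower. Sbk2 was not among these 8, with an adjusted p of 0.0724 in limma. Leaving out 1 library at a time gave 0 to 9 higher genes and 0 to 1 lower. It was 0 without MI 2, MI 4 or MI+TRD 2, 5 without MI+TRD 5, and 9 with 1 lower without MI 5. The device comparison called 18 genes with DESeq2 and 0 in every other setting run. Other pseudocounts, filters and scalings, and edgeR, gave 2 to 4 higher genes and 0 lower. The cause of these differences was not tested.

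Replicate numbers are shared between MI and MI+TRD, which the labels do not tie to an animal, litter or day. Correlations of same-numbered libraries were -0.25, 0.31, 0.14, 0.19, 0.12 and -0.34 for replicates 1 to 6, so 4 of 6 were above 0.1. Replicates 2, 3 and 5 each correlated best with their own number in both groups. Replicate 4 did so for its MI library only, and replicates 1 and 6 for neither. These matches do not settle whether the numbers pair the libraries, and the main fit does not pair them. With the replicate block the 3 genes were lost: 0 genes were higher or lower, and both replicates 2 are high-Myl7 libraries, so by construction that fit rests on MI 5 against MI+TRD 5. Under the block Sfrp1 was at -0.19, Mybpc1 at -0.014, Acsl6 at 0.18, Nr1d1 at 0.27 and Per3 at 0.050, each opposite to its sign without the block. Among the 12 higher and 12 lower genes named by rule and Nppa, no other gene reversed in any setting run. Genes named from the lists were not looked at in this way. Genes with few reads, such as Sln with 0 to 11 reads in the 9 others, limit how exactly a fold is known.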

Other observations

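Genes of the circadian clock, a list chosen after their values were seen, stood among both the higher and the lower genes. Of 15 fitted, Arntl and Npas2, partners in the activating arm, were higher at an unadjusted p below 0.05. Nr1d1, Per3 and Usp2, genes that this arm drives, were lower at such a p. Of all genes, 3.11% were higher and 2.59% lower at that threshold. Nr1d1 and Per3 were already among the 12 lower genes named by rule, so this list is a description with no test. Npas2 was 12.8 in MI 2, 11.8 in MI 5 and 9.62 in MI+TRD 2, above the 3.52 to 8.13 of the 9 others. Arntl was 18.8, 14.9 and 15.6, against 4.52 to 15.5. Nr1d1, a repressor in the clock, was 17.9 in MI 2, 30.1 in MI 5 and 19.0 in MI+TRD 2, against 21.1 to 52.8, and Usp2, a deubiquitinase, was 11.7, 14.4 and 17.4, against 15.4 to 30.2. The list median of -0.24 was 0.00 without MI 2, and the time of day of sampling is not in the labels.

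Psrc1, a microtubule protein named after its values were seen, lies next to Mybphl in the deposited table, at chr2:211176626-211181070. It was 2.67 in MI 2, 1.03 in MI 5 and 0.720 in MI+TRD 2, above the 0.050 to 0.353 of the 9 others. Those 9 values are under the mean of 0.458 required for the fit, so Psrc1 entered it only through the high-Myl7 libraries. Whether reads of the 2 neighbours were kept apart is not given in the sources used here.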
